A study of Mus musculus with 14 samples.

Results

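The kinesin superfamily genes of the mouse were followed in retinal RNA after knockdown of Bcor. Their members were taken as all RefSeq records whose gene symbol is Kif with a number and, where present, a letter from a to c, and the counts of a gene's records were summed. This gave 38 kinesin genes from 69 records, out of 26307 genes in the tables, where a record without a symbol counts as a gene. The symbol rule itself uses no measured value, though the family was picked with earlier results of these data known.

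Kinesins are motor proteins that use ATP to move along microtubules, most of them toward the plus end. In neurons, kinesin-1 heavy chains (Kif5a, Kif5b and Kif5c) carry vesicles, mitochondria and neurofilaments along the axon, usually with a pair of light chains that bind the cargo. In photoreceptors, heterotrimeric kinesin-2, built from Kif3a, Kif3b and the accessory subunit Kifap3, drives intraflagellar transport into the outer segment, a modified cilium. A further set of kinesins works in the spindle of dividing cells.

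RNA was sequenced from sorted retinal cells of wild-type CD1 mice, as 2 shBCOR libraries and 2 control libraries. In the shBCOR group, eyes of newborn mice (postnatal day 0) were electroporated in vivo with pSilencer-shBcor, a plasmid for a short hairpin RNA against Bcor. In the control group they received the empty vector pSilencer-CAG-Venus, which carries a fluorescent marker. Plasmid DNA was given at 1 µg/µl, and in both groups fluorescent cells were sorted at postnatal day 21 and pooled from several sorts to 30000 to 70000 cells per replicate. Electroporation at birth reaches the cells at the outer face of the newborn retina, so the sorted cells are a part of the retina and not all of its neurons. The labels do not say how many animals each pool held, so the p-values below measure the spread between pools. BCOR is a transcriptional corepressor, and the comparison addressed how retinal cells change when it is lowered.

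The shBCOR libraries held 3173927 and 4093380 counts and the controls 5107174 and 4973402. Of the 6 records of Bcor, the 5 coding ones were at 0 in all 4 libraries, and only a non-coding one had counts. That record had 0 and 13 counts in the shBCOR libraries and 20 and 8 in the controls (edgeR log2 fold change −0.63 with an SE of 2.40, adjusted p = 0.991). The level of coding Bcor RNA is thus unknown here, and these values are no test of the knockdown. The target therefore does not check the labels of the shBCOR libraries. Levels are given in CPM, counts scaled to library size, after TMM scaling, which sets the libraries to a common scale. Lengths of the records were not used here, so levels are compared between libraries for the same gene, and not between genes. A gene was called at an adjusted p under 0.05 in edgeR's quasi-likelihood test over all 7775 genes with enough counts.

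The tables list some kinesins as 1 record and others as several. Of the 22 kinesin genes with 1 record, 18 had counts, and they held 88.4% of all kinesin counts. Of the 16 genes with several records, 9 had counts, in 12 of their 47 records. Kif1a, the main carrier of synaptic vesicle precursors in axons, has 5 records and was listed at 0 and 4 counts in the shBCOR libraries and at 0 in both controls. Kif3a, the partner of Kif3b, has 3 records and was listed at 0 in all 4 libraries, while Kif3b, with 1 record, had 1080 or more in each. Kif5a and Kif1b have several records and many counts, while Kif2b, Kif18b, Kif23 and Kif28 have 1 record each and were at 0. The level of a kinesin with several records is uncertain, and a count of 0 is not taken as absence. The sources used here do not say how the counting treated a read that lies in several records.

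Kif5c, a kinesin-1 heavy chain that is enriched in neurons, was lower in the knockdown cells, and it was the 1 kinesin gene that passed the test. It had 1464 and 1622 counts in the shBCOR libraries, against 7085 and 7370 in the controls. On the scaled level these were 501 and 412 CPM in shBCOR cells and 1307 and 1392 CPM in control cells. Both shBCOR libraries lay far below both controls, and each group was tight. The mean was 457 ± 62.5 CPM in shBCOR cells and 1349 ± 60.3 CPM in control cells (SD, n = 2 each). Kif5c (NM_008449) fell 2.96-fold. On the log2 scale this was −1.57 ± 0.13 (SE), and edgeR gave an adjusted p of 0.0151. Of the 7775 genes tested 7 were called, 0.09%, with 4 lower, 0.0514%, and 3 higher, 0.0386%. By p-value Kif5c stood at rank 2 among all genes tested. Its call held under all 11 alternatives tried, with log2 fold changes of −1.71 to −1.44 and adjusted p of 8.91e-38 to 0.0335.

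Kif5a, the kinesin-1 heavy chain that is most restricted to neurons, had a fold change near that of Kif5c and did not pass. It had 478 and 384 counts in the shBCOR libraries and 2003 and 1736 in the controls. The levels were 164 and 97.6 CPM in shBCOR cells, against 369 and 328 CPM in control cells, with no overlap between the groups. Its log2 fold change was −1.42 ± 0.25 (adjusted p = 0.0964, edgeR). Of its 2 records, NM_001039000 held all of the counts. Without shBCOR replicate 1 the value was −1.84 (adjusted p = 2.01e-11) and without shBCOR replicate 2 it was −1.10 (1.28e-05), and over all alternatives the adjusted p lay between 2.01e-11 and 0.34. DESeq2 called Kif5a, Kif5c and Kif1c, all lower, where it called 4.79% of all genes with an adjusted p, 2.48% lower and 2.3% higher. So did edgeR with no filter on low counts, which called 1.82% of all genes, 1.12% lower and 0.702% higher.

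Kif5b, the kinesin-1 heavy chain found in most cell types, differed far less. It had 2653 and 2990 counts in the shBCOR libraries and 5625 and 5607 in the controls. After scaling these were 908 and 760.2 CPM in shBCOR cells and 1038 and 1059 CPM in control cells. The groups did not overlap, but the gap was small beside that of Kif5c. The log2 fold change was −0.33 ± 0.12, with an adjusted p of 0.456 in edgeR. Leaving out shBCOR replicate 1 gave −0.46 (adjusted p = 0.00334, with a range of 0.00334 to 1 over the alternatives), and leaving out shBCOR replicate 2 gave −0.22 (0.27).

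Within the kinesin-1 counts of each library, Kif5c took a smaller share and Kif5b a larger one in shBCOR cells, a comparison that needs no scaling between libraries. Kif5c held 31.9% of the kinesin-1 counts in shBCOR replicate 1 (95% exact binomial interval 30.5 to 33.2%) and 32.5% in replicate 2 (31.2 to 33.8%). In control replicate 1 it held 48.2% (47.3 to 49.0%) and in control replicate 2 50.1% (49.3 to 50.9%). Kif5b held 57.7 and 59.8% in the shBCOR libraries and 38.2 and 38.1% in the controls. These intervals cover counting error only.

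The ratio of Kif5c to Kif5b counts was 0.552 and 0.542 in shBCOR cells and 1.26 and 1.31 in control cells. It was 2.35-fold lower in shBCOR cells, a difference in mean log2 ratio of −1.23, where the SD between libraries was 0.02 in shBCOR and 0.04 in control. The ratio of Kif5a to Kif5b counts was 0.18 and 0.128 in shBCOR cells and 0.356 and 0.31 in control cells, a log2 difference of −1.13. For these ratios the exact two-sided permutation p was 0.333, the smallest that 2 libraries against 2 allow. The ratio of Kif5c to Kif5a was 3.06 and 4.22 in shBCOR cells and 3.54 and 4.25 in control cells. For this last ratio the groups overlapped, with a log2 difference of −0.11 and SDs of 0.33 in shBCOR and 0.19 in control. These 3 ratios were computed as 1 family with 2 more, given below, and none can reach 0.05 in this design.

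**Figure D1:**
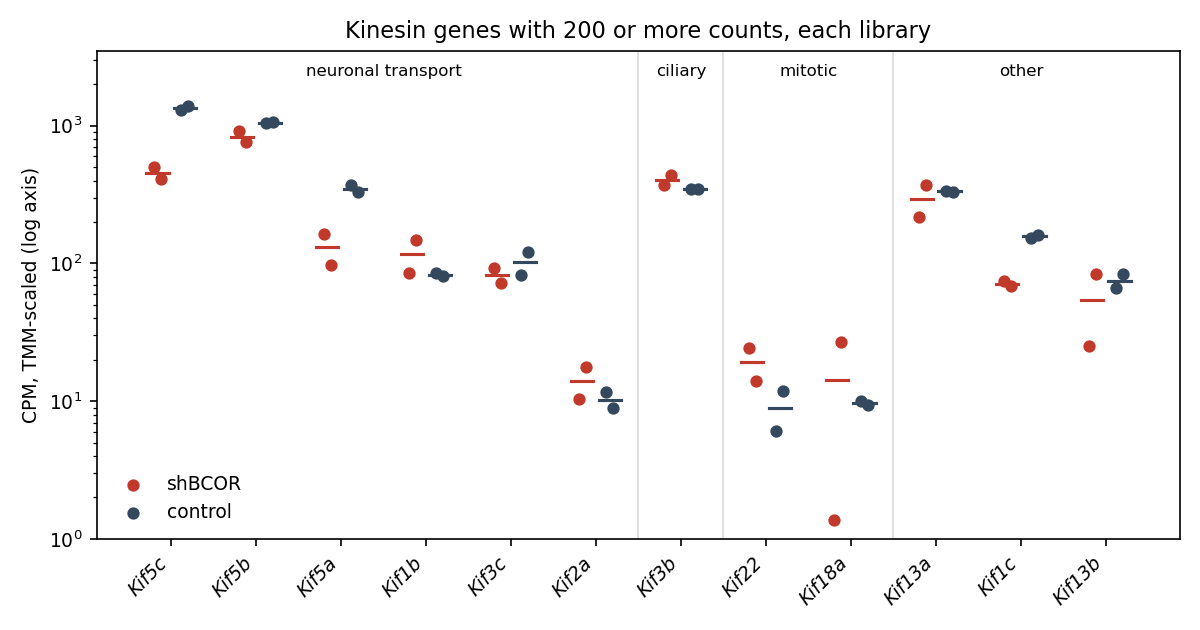
Level of the 12 kinesin genes with 200 or more counts over the 4 libraries, in CPM after TMM scaling on a log axis, with each dot a library and each line the group mean (shBCOR left, control right). Kif5c, Kif5a and Kif1c have both shBCOR libraries well below both controls, while Kif3b has 369 and 435 CPM in shBCOR cells against 346 and 348 CPM in control cells.

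The upstream sequence of Kif5c is shown because it is the kinesin that passed. Those of Kif1c, lower but not called in edgeR, and of Kif3b, slightly higher and not called, are shown beside it. Of the 38 kinesin genes, 31 had a window in the RefSeq promoter table of build GRCm38.p6. Kif5a and Kif5b had none, so the other kinesin-1 heavy chains could not be set beside Kif5c. Each sequence is the 250 bases before the annotated start, 5′ to 3′ on the gene's strand. Capitals mark matches on either strand to TAATCC, the core bound by the homeodomains of Otx2 and Crx, to GGGCGG, the GC box, and to TATAAA, the TATA box, which do not overlap in these windows. Their places are chr2:49619036-49619285 on the plus strand for Kif5c, chr11:70700298-70700547 on the plus strand for Kif1c, and chr2:153291166-153291415 on the plus strand for Kif3b.
Kif5c: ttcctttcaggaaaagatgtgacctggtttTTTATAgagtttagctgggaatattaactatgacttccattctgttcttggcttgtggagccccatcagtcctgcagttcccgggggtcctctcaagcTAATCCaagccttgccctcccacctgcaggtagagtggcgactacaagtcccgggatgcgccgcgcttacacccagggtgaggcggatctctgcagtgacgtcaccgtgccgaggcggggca
Kif1c: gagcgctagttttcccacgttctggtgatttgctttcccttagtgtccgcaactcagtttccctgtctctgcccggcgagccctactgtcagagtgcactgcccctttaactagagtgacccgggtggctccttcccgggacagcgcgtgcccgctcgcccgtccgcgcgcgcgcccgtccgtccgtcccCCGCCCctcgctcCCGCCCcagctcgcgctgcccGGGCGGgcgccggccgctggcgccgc
Kif3b: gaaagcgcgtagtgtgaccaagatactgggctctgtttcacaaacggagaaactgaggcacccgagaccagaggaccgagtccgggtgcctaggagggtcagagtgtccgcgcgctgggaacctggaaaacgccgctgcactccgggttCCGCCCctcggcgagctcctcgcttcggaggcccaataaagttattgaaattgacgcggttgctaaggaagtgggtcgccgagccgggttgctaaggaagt
The Kif5c window holds 1 TAATCC, starting 122 bases before the start, 1 reverse match to TATAAA at 220 bases before it, and no GC box. The Kif1c window holds 3 GC boxes and the Kif3b window 1, and neither holds TAATCC or TATAAA. Over all 32851 windows of the same length, 6.25% hold TAATCC, 32.7% a GC box and 12.4% TATAAA, on either strand. Among the 35 windows of kinesin genes, 4 hold TAATCC, in Kif5c, Kif12 and overlapping windows of Kif9, and 21 hold a GC box. The kinesin windows are richer in G and C, with a median of 62.4% against 52.4% over all windows. A match describes the letters and is not a site of binding, and the peak lists of the series were not tied to these genes here, because no genome of their build was used.

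Beyond kinesin-1, the neuronal transport kinesins did not share a direction. Kif1b, which moves mitochondria and synaptic vesicle precursors, had 249 and 586 counts in the shBCOR libraries and 459 and 431 in the controls. Its levels were 85.2 and 149 CPM in shBCOR cells and 84.7 and 81.4 CPM in control cells, so that shBCOR replicate 2 alone stood clear of the controls. The log2 fold change was 0.50 ± 0.30 (adjusted p = 0.667, edgeR). Without shBCOR replicate 1 it was 0.84 (adjusted p = 0.0339, with a range of 0.0339 to 1 over the alternatives), and without shBCOR replicate 2 it was 0.02 (0.977).

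Kif3c, a kinesin-2 subunit of neurons, had 269 and 283 counts in the shBCOR libraries and 444 and 648 in the controls. With 92.0 and 72.0 CPM in shBCOR cells, against 81.9 and 122 CPM in control cells, the groups overlapped (log2 fold change −0.32 ± 0.28, adjusted p = 0.83). Kif2a, a microtubule depolymerase that limits axon branches, had 30 and 70 counts in shBCOR libraries and 63 and 47 in control libraries, spread over 2 of its 8 records. Its log2 fold change was 0.45 ± 0.69 (adjusted p = 0.952). Kif21b, a motor of dendrites and axons, had 13 and 17 counts in shBCOR cells and 52 and 26 in control cells (−0.72 ± 1.19, adjusted p = 0.96). All of these counts lay in a non-coding record of Kif21b, and its coding record was at 0 in every library. Kif21a, with 5 records, was listed at 0 in both shBCOR libraries and at 10 and 0 counts in the controls, and it was not tested.

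The ciliary kinesins gave no call. Kif3b, the motor subunit of intraflagellar transport in the photoreceptor cilium, was the 1 ciliary member with 200 or more counts. It had 1080 and 1711 counts in the shBCOR libraries and 1878 and 1843 in the controls. The levels were 369 and 435 CPM in shBCOR cells and 346 and 348 CPM in control cells. Both shBCOR libraries were slightly above both controls (log2 fold change 0.21 ± 0.14; edgeR, adjusted p = 0.743). The ratio of Kif5c to Kif3b counts was 1.36 and 0.948 in shBCOR cells and 3.77 and 4.0 in control cells, 3.43-fold lower in shBCOR cells (exact permutation p = 0.333, the smallest possible).

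The other ciliary members held few counts. Kif27, a relative of the Hedgehog regulator Kif7 that acts in motile cilia of the mouse, had 69 and 20 counts in shBCOR cells and 59 and 32 in control cells (log2 fold change 0.75 ± 0.90). Kif24, a depolymerase that restrains cilium assembly at the centriole, had 18 and 62 in shBCOR cells and 22 and 32 in control cells (1.12 ± 0.98). Neither value was as far as 2 SE from 0. Kif19a, which limits the length of motile cilia in mouse, had 15 and 19 counts in shBCOR libraries and 2 and 35 in control libraries. Kif17, a homodimeric kinesin-2 of cilia and dendrites, had 0 and 22 counts in shBCOR libraries and 0 and 11 in control libraries. Kif9, a motor of the sperm flagellum and motile cilia, had 17 and 0 counts in shBCOR libraries and 5 and 19 in control libraries. Adjusted p was 0.83 to 0.996 for these 5 genes. Kif6 had 20 counts in control replicate 2 alone, and Kif3a and Kif7 were listed at 0 throughout.

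The mitotic kinesins held few counts, as did markers of dividing cells. Of 11 genes, 6 had counts and 4 were tested, with no call. Kif22, a chromokinesin, had 71 and 55 counts in shBCOR cells and 33 and 63 in control cells (log2 fold change 1.08 ± 0.68, adjusted p = 0.701, edgeR). Kif18a, which aligns chromosomes on the spindle, had 4 and 106 counts in shBCOR cells and 55 and 50 in control cells. The shBCOR libraries thus lay on either side of the controls, and the value of 0.54 ± 1.13 turned to −2.83 without shBCOR replicate 2. Kif11, the motor that pushes the spindle poles apart, had 18 and 11 counts in shBCOR cells and 22 and 23 in control cells (0.09 ± 1.5). Kif4, a chromokinesin of the anaphase midzone, had 0 and 8 counts in shBCOR cells and 30 and 45 in control cells (−2.72 ± 1.97, adjusted p = 0.754).

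Kif14 and Kif15, motors of cytokinesis and of the spindle, held 46 and 12 counts over the 4 libraries and were not tested. Kif14 had 0 and 1 counts in shBCOR cells and 38 and 7 in control cells, and Kif15 was at 0 in both shBCOR libraries and had 12 and 0 in the controls. Kif2c, Kif18b, Kif20a, Kif20b and Kif23 were listed at 0 in all libraries. For Kif18b and Kif23, with 1 record each, a count of 0 allows up to 0.945 and 0.733 CPM in the shBCOR libraries. In the controls it allows up to 0.587 and 0.603 CPM. These limits are without scaling and for counting error only. They do not cover Kif2c, Kif20a and Kif20b, which have several records. Of 11 markers of dividing cells, 6 were at 0, among them Mki67, Cdk1 and Aurkb, and their summed level was 47.9 and 55.7 CPM in shBCOR cells and 28.0 and 52.3 CPM in control cells.

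Among the kinesins outside these groups, Kif1c had the lowest p. Kif1c moves vesicles between the Golgi and the endoplasmic reticulum. It had 218 and 269 counts in the shBCOR libraries, against 830 and 853 in the controls. The levels were 74.6 and 68.4 CPM in shBCOR cells and 153 and 161 CPM in control cells, again with tight groups and no overlap. The log2 fold change was −1.14 ± 0.21, and it did not pass (adjusted p = 0.107, edgeR). Over the alternatives its adjusted p lay between 1.12e-05 and 0.766, and it passed in 4 of 11. Without shBCOR replicate 1 or 2 it had −1.20 (adjusted p = 0.000822) and −1.09 (0.00398).

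The paralogs Kif1b and Kif1c thus stood apart, with a ratio of Kif1c to Kif1b counts of 0.876 and 0.459 in shBCOR cells and 1.81 and 1.98 in control cells. The log2 difference was −1.58, with an SD of 0.66 in shBCOR and 0.09 in control.

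Kif13a, a motor of recycling endosomes, had 639 and 1451 counts in the shBCOR libraries and 1815 and 1759 in the controls. With 219 and 369 CPM in shBCOR cells and 335 and 332 CPM in control cells, the shBCOR libraries lay on either side of the controls (log2 fold change −0.18 ± 0.24, adjusted p = 0.92). Kif13b, a motor of vesicles that binds the scaffold Dlg1, had 74 and 330 counts in shBCOR cells and 360 and 443 in control cells (−0.45 ± 0.50, adjusted p = 0.896). For Kif13a and Kif13b shBCOR replicate 1 was the low library. Without it the values were 0.15 and 0.16, and without shBCOR replicate 2 they were −0.62 (adjusted p = 0.0169) and −1.58 (0.00712), so the direction rested on 1 library.

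Kif26b, a member without motor activity that acts in kidney development, had 0 and 11 counts in shBCOR cells and 55 and 51 in control cells (log2 fold change −2.76 ± 1.67, adjusted p = 0.672). It passed without shBCOR replicate 2 (adjusted p = 0.024, with a range of 0.024 to 1 over the alternatives), where the remaining shBCOR library is at 0. Its relative Kif26a, which acts in development of the enteric nervous system, had 9 and 0 counts in shBCOR cells and 40 and 19 in control cells (−1.84 ± 2.15, adjusted p = 0.897). Kif2b, Kif12, Kif16b and Kif28 were listed at 0 throughout.

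**Figure D2:**
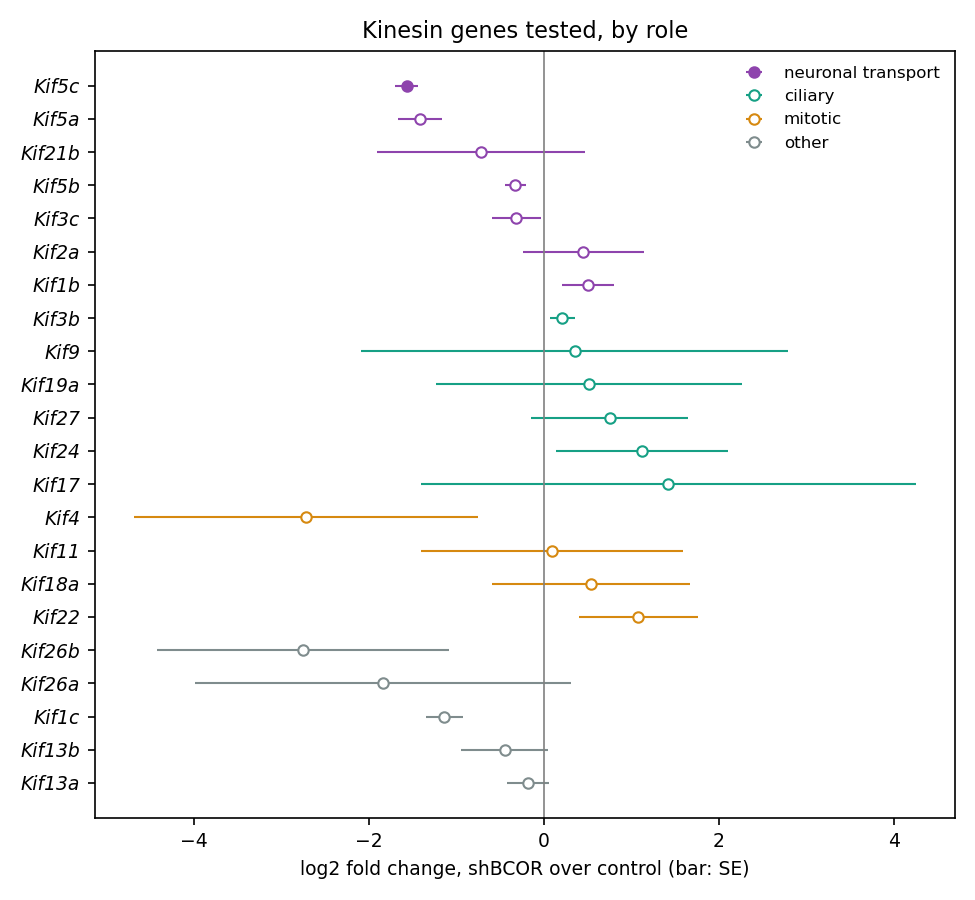
Log2 fold change of shBCOR over control for the 22 kinesin genes tested, grouped by role, with bars of 1 SE; the filled dot passed at an adjusted p under 0.05 and open dots did not. Kif5c at −1.57 is the filled dot, and the long bars belong to genes with few counts.

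Set by role, the median was negative for the neuronal kinesins and positive for the ciliary ones, with 1 call in all. The 7 neuronal members tested had a median log2 fold change of −0.33, with 5 negative and 1 called. All 6 ciliary members tested were positive, with a median of 0.63 and none called, and the 4 mitotic members had 0.31. The median over all 7775 genes tested was −0.01, and 3960 of them were negative. The ciliary median rests on genes with few counts: it was 1.52 without control replicate 2, and the mitotic one turned to −1.15 without shBCOR replicate 2 and to −0.24 with the replicate number as a block. Members that passed the count filter are not all members, and no test was made between the roles.

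Of the 22 kinesins tested, 8 had both shBCOR libraries below both controls and 4 had both above, where over all genes tested these shares were 23.2% and 18.8%. Among the 12 with 200 or more counts, 4 were below (Kif5a, Kif5b, Kif5c and Kif1c) and 3 above (Kif1b, Kif3b and Kif22), against 22.1% and 22.4% of the 5010 genes with as many counts. At an unadjusted p under 0.05, 4 kinesins were lower and 0 higher, where 5.11% of all genes tested were lower and 4.19% higher. The 4 are the same kinesin-1 genes and Kif1c.

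Summed over all 38 genes, the kinesin level was lower in both shBCOR libraries than in both controls, and without kinesin-1 the groups overlapped. The summed kinesin level was 2527 and 2551 CPM in shBCOR cells and 3873 and 3999 CPM in control cells. Kinesin-1 heavy chains alone summed to 1572 and 1270.2 CPM in shBCOR cells and 2714 and 2779 CPM in control cells. The remaining 35 kinesins summed to 955 and 1280.4 CPM in shBCOR cells and 1159 and 1219.7 CPM in control cells, where the groups overlapped.

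As shares of the kinesin counts, neuronal transport kinesins took 69.8% in shBCOR replicate 1 (95% exact binomial interval 68.7 to 70.8%) and 59.4% in replicate 2 (58.4 to 60.3%). In the controls they took 75.0% (74.4 to 75.6%) and 74.9% (74.4 to 75.5%). Ciliary kinesins took 16.2 and 18.3% in the shBCOR libraries and 9.36 and 9.41% in the controls, nearly all of it Kif3b. Mitotic kinesins took 1.26 and 1.80% in the shBCOR libraries and 0.905 and 0.888% in the controls. The shBCOR libraries differed from each other by more than counting error in these shares, and the controls did not. A share can rise while the level stays, because the kinesin total was lower in shBCOR cells. As levels, ciliary kinesins summed to 410.2 and 466 CPM in shBCOR cells and 363 and 376 CPM in control cells. Mitotic kinesins summed to 31.8 and 46.0 CPM in shBCOR cells and 35.0 and 35.5 CPM in control cells, where the groups overlapped.

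**Figure D3:**
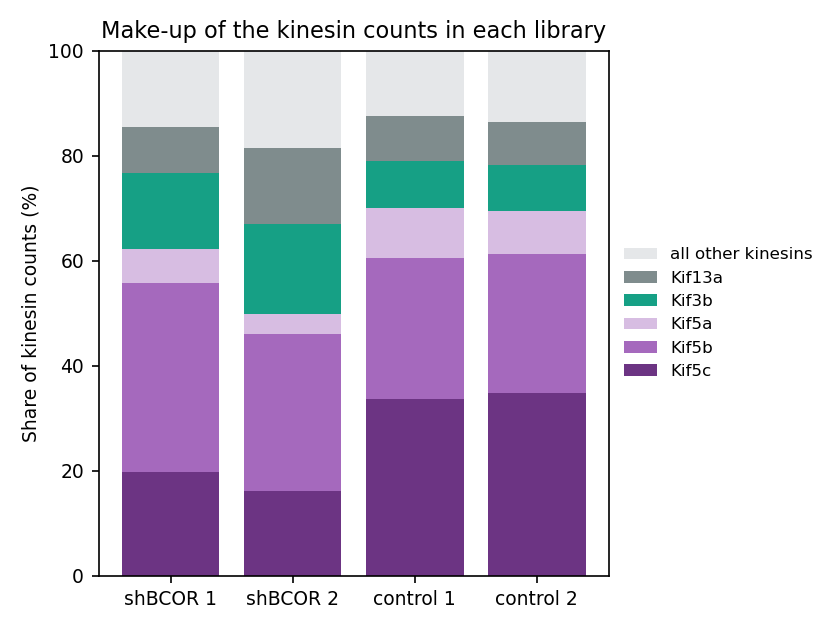
Share of all kinesin counts taken by Kif5c, Kif5b, Kif5a, Kif3b, Kif13a and the other kinesins, in percent, for each of the 4 libraries. Kif5c takes 19.8 and 16.2% in shBCOR cells and 33.7 and 34.8% in control cells, while Kif3b takes 14.6 and 17.1% in shBCOR cells and 8.94 and 8.71% in control cells. The kinesin total is lower in shBCOR cells, so a larger share is not by itself a higher level.

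The partners of kinesins outside the symbol pattern gave no call. Of 18 listed genes (light chains, adaptors, C-terminal kinesins and others) 11 had counts and 10 were tested, with a median log2 fold change of 0.02. Their summed level was 1968 and 1928 CPM in shBCOR cells and 1958 and 1927 CPM in control cells. The light chain Klc4 had 0 counts in both shBCOR libraries and 19 and 18 in the controls (adjusted p = 0.58, edgeR). With a floor of 3 counts per library in place of 0 it was 3.86-fold lower, which allows for no spread between pools. The light chain Klc3 had 24 and 39 counts in shBCOR cells and 7 and 18 in control cells (1.94 ± 1.29, adjusted p = 0.726). The scaffold Mapk8ip2, which binds kinesin light chains, had 470 and 368 counts in shBCOR cells and 962 and 793 in control cells (−0.37 ± 0.28, adjusted p = 0.77). Kifap3, Klc1 and Klc2 were listed at 0, which is again not taken as absence.

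For cytoplasmic dynein, the minus-end motor, calls depended on the tool. Of 25 genes of dynein and dynactin 16 were tested, 11 positive and 5 negative, with a median of 0.23 and none called in edgeR. The dynein adaptor Hook3 had 3718 and 5071 counts in shBCOR cells and 4417 and 4090 in control cells (log2 fold change 0.69 ± 0.11; edgeR, adjusted p = 0.0769). The heavy chain Dync1h1 had 0.40 ± 0.08 (adjusted p = 0.146) and the adaptor Hook1 0.37 ± 0.11 (0.312). DESeq2 called all 3, each higher (adjusted p = 2.94e-10 for Hook3, 7.95e-06 for Dync1h1 and 0.00651 for Hook1), and edgeR with no filter called Hook3 (8.86e-05) and Dync1h1 (0.0122). Over the alternatives the adjusted p reached 0.727 for Hook3 and 1 for both others. Of the 16 tested, 4 had both shBCOR libraries above both controls, 2 had both below and 10 overlapped, where 18.8% of all genes tested lay above. Of 18 genes of the ciliary dynein and intraflagellar transport, 15 were tested with a median of 0.02. Dync2h1, the ciliary dynein heavy chain, had 0.29 ± 0.19 (adjusted p = 0.704), Ift20 had −0.45 ± 0.28 (0.704) and Ift74 had 0.35 ± 0.26 (0.764).

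The microtubule tracks gave no call in edgeR, but DESeq2 called Map1b and Tubb2a. Of 20 microtubule-associated proteins 12 were tested, 4 positive and 8 negative, with a median of −0.31. Map1b had 22758 and 31390 counts in shBCOR cells and 31164 and 30112 in control cells (log2 fold change 0.46 ± 0.07, adjusted p = 0.0785, edgeR). It passed in 4 of 11 alternatives, among them DESeq2 (adjusted p = 4.57e-09) and edgeR with no filter (0.000216), with a range of 3.26e-09 to 0.88. The tubulin-binding proteins Stmn3 and Stmn1 had −0.81 ± 0.33 (adjusted p = 0.507) and −1.19 ± 0.66 (0.634). Of 14 tubulins 12 were tested, 1 positive and 11 negative, with a median of −0.44. Tubb2a, a beta-tubulin of neurons, had 107 and 116 counts in shBCOR cells and 374 and 419 in control cells (−1.17 ± 0.31, adjusted p = 0.262). In DESeq2 its adjusted p was 0.00611, with a range of 0.00611 to 1 over the alternatives. Tubb5 had 0.24 ± 0.14 (adjusted p = 0.634) and Tubb4a −0.81 ± 0.56 (0.743).

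Summed markers of inner retinal neurons were lower along with Kif5c, and their part in its change was not tested. In such bulk samples fewer cells of a type and less RNA per cell cannot be told apart. Whether the RNA of these markers came from electroporated cells was not tested either. The 13 markers of ganglion and horizontal cells, 11 of them with counts, summed to 727 and 389 CPM in shBCOR cells and 1896 and 1843 CPM in control cells. Most of this sum was the neurofilament chain Nefl, with 573 and 283 CPM in shBCOR cells and 1414 and 1383 CPM in control cells. Of the 10 tested, 1 was positive, at 1.8, and 9 were negative. Rbpms and Slc17a6, which define ganglion cells, were at 0. As for the kinesins, a marker at 0 in any list here is not taken as absence, since the rod gene Nrl was at 0 too. Nefm, the medium neurofilament chain, had 25 and 49 counts in shBCOR cells and 593 and 631 in control cells. It fell by 3.43 ± 0.33 on the log2 scale (edgeR, adjusted p = 0.0204). Its partners Nefh and Nefl had −1.76 ± 0.23 (0.059) and −1.71 ± 0.29 (0.0846). DESeq2 called both (adjusted p = 1.67e-13 for Nefh and 0.0139 for Nefl), as did edgeR with no filter (7.52e-11 and 1.4e-10) and with the replicate number as a block (0.0118 each). Over the alternatives their adjusted p reached 0.249 and 0.215. The 9 amacrine markers, 6 with counts, summed to 28.7 and 36.9 CPM in shBCOR cells and 111 and 131 CPM in control cells, with Pax6, Calb2 and Tfap2a at 0. Gad1, Gad2 and C1ql2, the amacrine markers with the lowest p, had −2.66 ± 0.53, −2.33 ± 0.53 and −2.64 ± 0.81 (adjusted p = 0.145, 0.184 and 0.338). Of the 5 tested, 1 was positive, at 1.12. DESeq2 called Gad1 (adjusted p = 4.11e-05), Gad2 (0.00117) and C1ql2 (0.0149), and edgeR with no filter called Gad1 (0.00137) and Gad2 (0.0349). Over the alternatives the adjusted p reached 0.995 for Gad1 and 1 for Gad2 and C1ql2.

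Bipolar and Müller glia markers also summed lower in both shBCOR libraries. The 11 bipolar markers, 8 with counts, summed to 1002 and 1366 CPM in shBCOR cells and 1701 and 1594 CPM in control cells, with Pcp2 and Gng13 among those at 0. Grm6, Cabp5 and Lhx4 had −1.33 ± 0.34, −0.91 ± 0.26 and −1.69 ± 0.62 (adjusted p = 0.258, 0.299 and 0.446). DESeq2 called Grm6 (adjusted p = 0.0018), and edgeR with no filter called Grm6 (0.00819) and Cabp5 (0.000528), with a range up to 1 for both. The 10 markers of Müller glia summed to 3259.7 and 4046 CPM in shBCOR cells and 4879 and 4715 CPM in control cells. Glul made up most of this sum, with 2387 and 3066 CPM in shBCOR cells and 3833 and 3724 CPM in control cells. Of the 7 tested, 2 were positive and 5 negative. Glul, Kcnj10 and Vim, those with the lowest p, had −0.47 ± 0.12, −0.77 ± 0.21 and −0.43 ± 0.17 (adjusted p = 0.262, 0.268 and 0.504). DESeq2 called Glul (adjusted p = 0.000591) and Kcnj10 (0.00685), and edgeR with no filter called Glul (0.000913), again with a range up to 1.

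The 12 rod markers, all but Nrl with counts, summed to 257022 and 217462 CPM in shBCOR cells and 192714 and 194148 CPM in control cells. Pde6a and Cnga1 had 0.39 ± 0.07 and 0.41 ± 0.10 (adjusted p = 0.0962 and 0.192). DESeq2 called both, each higher (adjusted p = 3.31e-06 and 0.000126), as did edgeR with no filter (0.000267 and 0.00489), with a range up to 1. The 10 cone markers, 8 with counts, overlapped between the groups, with 1114 and 734 CPM in shBCOR cells and 1186 and 1063 CPM in control cells, and Cnga3 and Gngt2 at 0. Of the 8 tested, 2 were positive, up to 1.06, and 6 negative. Gnb3, Opn1sw and Opn1mw, those with the lowest p, had −0.30 ± 0.16, −0.31 ± 0.20 and −0.71 ± 0.56 (adjusted p = 0.613, 0.709 and 0.794). Rods make up most cells of the mouse retina and of a sort after electroporation at birth, and their markers held most of the marker counts here. Of the dividing cell markers, Mcm3, Pcna and Ccna2 had 2.39 ± 1.00, −0.20 ± 0.45 and 0.71 ± 2.33 (adjusted p = 0.527, 0.978 and 0.987).

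**Figure D4:**
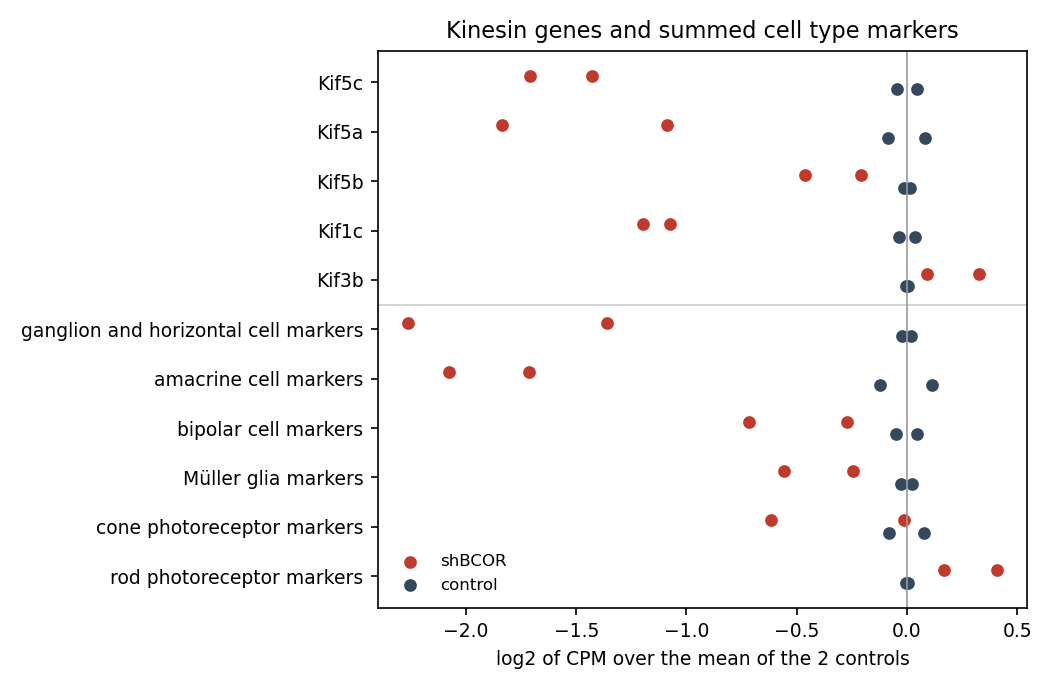
Level of 5 kinesin genes and summed level of 6 sets of cell type markers in each library, as log2 of CPM over the mean of the 2 controls, with each dot a library (shBCOR above control in each row). Kif5c and Kif5a lie to the left of the controls, as do Kif5b, Kif1c and the markers of ganglion and horizontal, amacrine, bipolar and Müller cells, cone markers overlap, and Kif3b lies to the right with the rod markers.

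The kinesins that were lower had both long and short spans on the genome, and the part of gene length in their changes was not tested. Kif5c spans 155 kb, while Kif5a, Kif5b and Kif1c span 40.7, 40.5 and 31.6 kb on GRCm38.p6. Kif26b, Kif4, Kif21b and Kif26a, also below both controls but with few counts, span 404, 101, 46.6 and 37.8 kb. Kif13a and Kif13b, at 181 and 157 kb, overlapped between the groups. Over all genes tested, the median log2 fold change was −0.11 in the 1944 with the shortest spans (up to 9.05 kb) and 0.03 in the 1943 with the longest (from 57.6 kb). An offset for gene span was added after the data were seen. With it the log2 fold change was −1.49 for Kif5c, −1.39 for Kif5a, −0.31 for Kif5b and −1.11 for Kif1c. Kif5c alone of these was called (edgeR, adjusted p = 0.0335). The offset removes an average trend with span, so it does not test the part of length for single genes.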

How the data were processed

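RNA from 4 pools of sorted retinal cells (2 shBCOR, 2 control) was analysed. The deposited tables give whole-number counts for each RefSeq record, which the authors obtained with HTSeq. Per the labels' protocols, libraries were built from 3.0 to 5.1 ng of rRNA-depleted RNA by a stranded method with 15 cycles of PCR. Tools named in the submitters' processing notes further include Trimmomatic, TopHat and DESeq2, with mm10 and mm9 as builds and no versions. No source used here gives the strand setting, so overlapping and antisense genes are not told apart. Each table held 45895 records, and 99.7% were paired with a symbol through the RefSeq gene table of GRCm38.p6. The 146 records without one took 0.465% of counts and each stayed as a row of its own.

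Counts were summed per gene and tested with edgeR 4.0.16 in R 4.3.3 (TMM, filterByExpr, robust quasi-likelihood F test of shBCOR over control, Benjamini-Hochberg adjustment over all genes tested). The procedure was run on simulated data, where the pass criterion covered only a spread smaller than that of these libraries. The SE of a log2 fold change was derived from the edgeR test, as its absolute value over the square root of the F statistic. For genes with few counts, or none in a group, it is only a rough guide. The common biological coefficient of variation was 0.545. Every kinesin past the count filter was named, and from each other list the called genes and the 3 with the lowest p. Some marker genes are not reported here. DESeq2 1.42.0 and other settings were alternatives. The members and lists were chosen with earlier results of these data known. Titles gave the replicate numbers; for shBCOR replicate 2 the number in the deposited table's name differs. The peak lists were not used here.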

Additional observations from a re-analysis of the deposited data

How the results depend on the processing

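Kif5c was called under every alternative run, and the count of calls depended strongly on the setting. Against 7 genes and 1 kinesin called in edgeR, DESeq2 called 393 genes and 3 kinesins, and edgeR with no filter on low counts called 205 and 3, in each case Kif5a, Kif5c and Kif1c. Leaving out 1 library gave 4 to 525 genes and 1 to 6 kinesins. The high numbers, 525 without shBCOR replicate 1 and 491 without shBCOR replicate 2, come from fits where the spread is that of the controls and the lone library is assumed to vary like them. Size factors of DESeq2 in edgeR, a filter of 1 CPM in 2 libraries and records tested singly gave 7 genes, and the offset for gene span, chosen after seeing the data, gave 8, with Kif5c the 1 kinesin in each. With the replicate number of the titles as a replicate block, 23 genes and 2 kinesins passed, Kif5a (log2 fold change −1.46) and Kif5c. The labels do not say that a number marks shared litters, and deviations of libraries with the same number had a correlation of −0.00793. Without single libraries, the median of the ciliary kinesins lay between 0.31 and 1.52 and that of the mitotic ones between −1.15 and 0.31, and the replicate block gave −0.24 for the mitotic ones. Directions turned for 8 of the 22 kinesins tested. Under the replicate block Kif11 had −0.01, Kif18a −0.46 and Kif9 −1.10. Without single libraries Kif11 ranged over −0.58 to 0.54, Kif13a over −0.62 to 0.15, Kif13b over −1.58 to 0.16, Kif18a over −2.83 to 1.46, Kif19a over −0.41 to 3.64, Kif27 over −0.73 to 1.46, Kif2a over −0.01 to 0.79 and Kif9 over −6.47 to 1.61, where a group left with 0 counts makes the size void. The markers Pcna and Ccna2 ranged over −0.40 to 0.03 and −0.28 to 6.88. The cause was not tested. Of the 36 genes named from the other lists, 1 passed in edgeR, 17 in DESeq2, 14 with no filter, 3 with the replicate block and 1 to 22 without single libraries, and 25 in at least 1 alternative. Levels per kilobase were not run, since record lengths were not used here. Most ciliary and mitotic kinesins held under 200 counts over the 4 libraries, which limits their precision.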
